A study of Mus musculus with 6 samples.

Results

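The genes described here encode the TGF-β ligands (Tgfb1, Tgfb2 and Tgfb3), their receptors (Tgfbr1, Tgfbr2 and Tgfbr3), the intracellular mediators Smad2 and Smad3, the inhibitor Smad7 and the target gene Tmeff1. They were taken by symbol from the count table, which held all 10 among its 56941 genes. Total RNA was sequenced from sorted hair follicle stem cells (HFSCs) of dorsal skin of female PD68 mice, in 3 libraries with the label WT and 3 with the label Dab2-cKO, each a biological replicate. All mice had the strain label B6;129S4-Dab2tm1Cpr/J, carried Dab2 fl/fl and received tamoxifen at 75 mg/kg on 5 consecutive days. The Dab2-cKO mice also carried K14CreER, a Cre recombinase whose promoter is active in basal keratinocytes, so that cells without K14 keep Dab2 in both genotypes. HFSCs were sorted on CD34 and α6-integrin, and whether a library came from 1 mouse or from pooled mice is not given in the sources used here. The table names its columns WT and FL-FL, and the FL-FL columns were taken as Dab2-cKO because they are the group other than WT, although both genotypes are floxed.

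TGF-β ligands are secreted in a latent form and, once released, bring together a type II receptor (Tgfbr2) and a type I receptor (Tgfbr1), which phosphorylates Smad2 and Smad3. Tgfbr3, also called betaglycan, is a co-receptor that presents ligand, above all TGF-β2, to Tgfbr2. Smad7 is induced by the pathway and blocks the type I receptor. In the resting follicle, TGF-β2 from the dermal papilla is known to activate Smad2 and Smad3 in stem cells of the hair germ, where Tmeff1 is a target that dampens BMP signaling at the entry into anagen. Dab2 has been described as an adaptor that links TGF-β receptors to Smad proteins.

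The libraries held 7040032 to 11696457 counts. Dab2 had normalized counts of 338, 332 and 309 in WT and of 1434, 1300.3 and 1389.6 in Dab2-cKO, where normalized counts are counts scaled by edgeR's TMM factors to a common library size. The targeted gene was thus higher in the libraries labelled Dab2-cKO, by a log2 fold change of 2.08 (SE 0.08, adjusted p = 3.37e-34 by edgeR), against its label. Genotypes are therefore given as the libraries are labelled, and each direction below rests on those labels and on the column assignment. The sorting markers were present, with 510 ± 53.1 and 1779.6 ± 35.6 normalized counts of Cd34 and 959.5 ± 41.4 and 1409 ± 47.8 of Itga6 in WT and Dab2-cKO (SD, n = 3 each). Of all 12 bulge markers, 6 were higher, 4 lower and 2 not called, with Sox9 (-1.45), Lhx2 (-1.43), Lgr5 (-1.32) and Foxc1 (-1.001) as the lower ones on the log2 scale. Genes that mark cell types other than HFSCs were present as well. The summed normalized counts of 8 fibroblast markers were 101880 to 123230 in WT and 356000 to 375740 in Dab2-cKO, those of 7 endothelial markers 1089 to 1268 and 4099.8 to 4132, and those of 5 skeletal muscle markers 17393 to 20147 and 95351 to 97589. The 8 immune markers summed to 1628 to 1775 and 6904.5 to 7222. Over the lists for fibroblasts, endothelium, smooth muscle, immune cells and skeletal muscle, 31 of 34 markers were higher, 1 was lower and 2 were not called, and none was at 0. The 9 markers of matrix, inner root sheath and hair shaft were all lower, with sums of 222890 to 268180 in WT and 3026.9 to 3082 in Dab2-cKO. All 5 melanocyte markers were lower, while 5 of 6 markers of differentiated epidermis and 4 of 5 of the infundibulum and sebaceous gland were higher and 1 of each was lower. Mitochondrial genes took 13.0 to 14.5% of counts in WT and 19.1 to 20.3% in Dab2-cKO, ribosomal RNA genes 15.3 to 16.95% and 22.3 to 24.2%, and the 100 most abundant genes 33.1 to 33.9% and 44.5 to 46.6%. These measures of composition moved with the genotype without overlap, and their part in the results below was not tested. Fewer cells of a type and less RNA per cell cannot be told apart in such data.

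Of the 10 TGF-β genes, 5 rose and 3 fell in the libraries labelled Dab2-cKO, and 2 were not called. All 10 passed the filter on low counts. Tgfb1, Tgfb2, Tgfb3, Tgfbr2 and Tgfbr3 rose, Smad2, Smad7 and Tmeff1 fell, and Tgfbr1 and Smad3 did not pass the threshold. A gene was called at an adjusted p under 0.05 in edgeR's quasi-likelihood test, with Benjamini-Hochberg adjustment over the 32149 genes tested. Of all genes tested, 28.2% were called, 16.8% as higher and 11.4% as lower. As these genes are well counted, a nearer background is the 8792 genes with at least the mean normalized count of Tgfb3, the lowest of them. Of those, 63.9% were called, 39.7% as higher and 24.2% as lower, and the 8 of 10 TGF-β genes called are to be read against that share, since most well-counted genes were called. In the same 8 genes the values of the genotypes were fully separated between libraries. This was so for 38.3% of all genes tested, but the share among the 8792 well-counted genes was not computed. No excess of separated genes can therefore be read from it. Exact permutation of 3 against 3 libraries cannot give a p below 0.1. The size of the changes differed widely among the 8 genes, from fold changes of 1.34 for Tgfb1 and 1.29 in the other direction for Smad2 to 3.07 for Tgfbr2 and 3.02 in the other direction for Smad7.

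**Figure D1:**
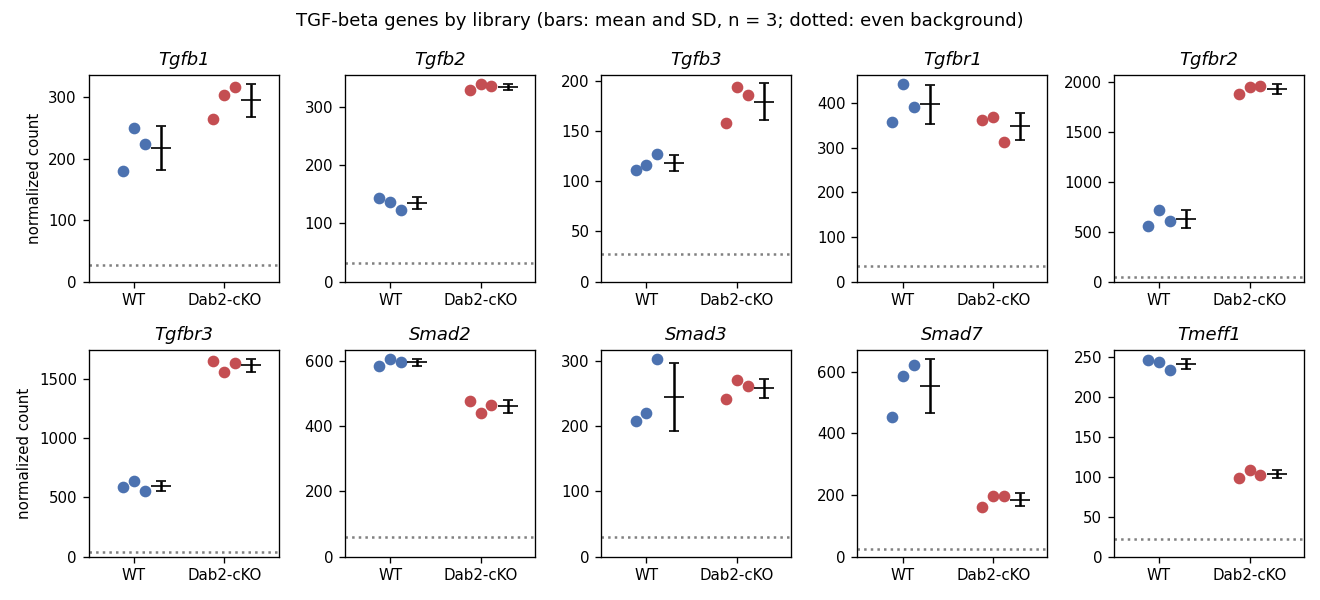
Normalized counts (vertical axis from 0) of the 10 TGF-β genes in each library labelled WT (blue) and Dab2-cKO (red), with mean and SD (n = 3) beside the points and the count expected from an even background as a dotted line. Tgfbr2 reached 1879.7 to 1967 in Dab2-cKO against 556 to 724 in WT, while Smad7 and Tmeff1 lay lower in every Dab2-cKO library and Tgfbr1 and Smad3 overlapped.

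The 250 bases upstream of the canonical start are shown for the 3 genes that rose more than 2-fold and for Tmeff1, the gene with the largest fall apart from Smad7, since Smad proteins bind DNA through a short motif and these genes moved in opposite directions. Sequence and starts are those of the GENCODE annotation of GRCm39, and capitals mark CAGAC, the core of the CAGA box bound by Smad3, or its reverse complement GTCTG.
Tgfb2, GRCm39 chr1:186438295-186438544, minus strand: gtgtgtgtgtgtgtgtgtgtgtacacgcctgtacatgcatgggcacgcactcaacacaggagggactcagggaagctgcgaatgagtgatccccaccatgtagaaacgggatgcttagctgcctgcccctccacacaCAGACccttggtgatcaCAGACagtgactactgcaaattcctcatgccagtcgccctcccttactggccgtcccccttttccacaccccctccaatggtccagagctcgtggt
Tgfbr2, GRCm39 chr9:116004801-116005050, minus strand: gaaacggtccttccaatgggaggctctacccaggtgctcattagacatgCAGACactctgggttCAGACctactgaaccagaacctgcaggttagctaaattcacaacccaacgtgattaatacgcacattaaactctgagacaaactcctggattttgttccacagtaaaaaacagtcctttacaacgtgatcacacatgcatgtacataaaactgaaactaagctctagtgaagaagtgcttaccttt
Tgfbr3, GRCm39 chr5:107437496-107437745, minus strand: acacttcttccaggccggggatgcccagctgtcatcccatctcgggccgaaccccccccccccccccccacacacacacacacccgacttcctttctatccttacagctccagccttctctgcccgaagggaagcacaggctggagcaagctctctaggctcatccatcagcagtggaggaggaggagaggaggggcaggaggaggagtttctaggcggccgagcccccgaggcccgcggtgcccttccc
Tmeff1, GRCm39 chr4:48584619-48584868, plus strand: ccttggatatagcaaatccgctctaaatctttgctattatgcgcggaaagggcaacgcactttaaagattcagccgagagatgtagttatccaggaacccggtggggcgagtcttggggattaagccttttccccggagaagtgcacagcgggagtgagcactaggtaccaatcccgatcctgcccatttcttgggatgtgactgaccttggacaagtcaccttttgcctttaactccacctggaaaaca
The motif stood 2 times in the window of Tgfb2, beginning 113 and 96 bases before the start, and 2 times in that of Tgfbr2, beginning 201 and 186 bases before it. Neither Tgfbr3 nor Tmeff1 held it in these letters. Of the TGF-β genes not shown, Tgfbr1 and Smad3, which were not called, held the motif 1 time each, and Tgfb1, Tgfb3, Smad2 and Smad7 did not hold it. Among the called genes, the 2 that held it, Tgfb2 and Tgfbr2, both rose, while Tgfb1, Tgfb3 and Tgfbr3 rose without it. The part of the motif in the changes was not tested. On either strand the motif was found in 9001 of 21770 windows of protein-coding genes (41.3%), so its presence is common.

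Of the ligands, Tgfb2 rose most. Its normalized counts were 144, 136 and 123 in the libraries labelled WT and 328, 338 and 336 in those labelled Dab2-cKO. Each Dab2-cKO library was more than 2 times the highest WT library, and the replicates of a genotype lay close together. Tgfb2 (ENSMUSG00000039239, chromosome 1, 186354985 to 186438294) had a log2 fold change of 1.32 (SE 0.12, adjusted p = 2.16e-15 by edgeR), or 2.49-fold.

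Tgfb1 (ENSMUSG00000002603, chromosome 7, 25386390 to 25404506), the most widely expressed ligand and abundant in immune cells, was counted at 179, 250.02 and 224 in WT and at 264, 304 and 316 in Dab2-cKO. The genotypes were separated only by the small gap between WT replicate 2 and Dab2-cKO replicate 1. The log2 fold change was 0.43 (SE 0.12, adjusted p = 0.0027 by edgeR). With scaling by library size alone it was 0.0069 and was not called (adjusted p = 0.967).

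For Tgfb3 (ENSMUSG00000021253, chromosome 12, 86102756 to 86126301), the values were 111, 116 and 127 in WT and 158, 193 and 185 in Dab2-cKO. All Dab2-cKO libraries were above all WT libraries, by a log2 fold change of 0.59 (SE 0.14, adjusted p = 0.000639 by edgeR). This call too was lost with library size alone (0.17, adjusted p = 0.358). Exons of other genes on the opposite strand cover 13.0% of the exon bases of Tgfb3 and 3.71% of those of Tgfb2, and the strand setting of the counting is not given in the sources used here. Markers of immune cells, which produce Tgfb1, were higher in the same libraries for 6 of 8 genes, and 2 of 8 dermal papilla markers were higher and 3 lower, with summed counts of 722 to 738 in WT and 684 to 713 in Dab2-cKO. Their part in the rise of the ligands was not tested.

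Among the receptors, Tgfbr2 rose 3.07-fold and Tgfbr3 2.72-fold, whereas Tgfbr1 was not called. The type II receptor gene Tgfbr2 (ENSMUSG00000032440, chromosome 9, 115913361 to 116004800) had 556, 724 and 606 normalized counts in WT and 1879.7, 1949 and 1967 in Dab2-cKO. The lowest Dab2-cKO library was more than 2 times the highest WT library. Its log2 fold change of 1.62 (SE 0.08, adjusted p = 4.68e-29 by edgeR) was the largest rise among the 10 genes.

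The co-receptor gene Tgfbr3 (ENSMUSG00000029287, chromosome 5, 107249402 to 107437623) was counted at 587, 642 and 556 in WT and at 1657.5, 1559 and 1638 in Dab2-cKO. Its libraries formed 2 tight groups far apart, with a log2 fold change of 1.44 (SE 0.07, adjusted p = 4.78e-27 by edgeR), or 2.72-fold. Over 15 alternatives the log2 fold change ranged from 1.02 to 1.51 for Tgfbr3 and from 1.20 to 1.74 for Tgfbr2, and neither gene lost its call in any alternative fit. Exons of the predicted gene Gm43422 on the same strand cover 4.34% of the exon bases of Tgfbr3, and exons on the opposite strand cover 5.04% of those of Tgfbr2.

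The type I receptor gene Tgfbr1 (ENSMUSG00000007613, chromosome 4, 47353134 to 47414931) had 357, 442 and 389.6 normalized counts in WT and 361, 368 and 312 in Dab2-cKO. The genotypes overlapped, and the difference of -0.19 on the log2 scale (SE 0.10) was not called, with adjusted p = 0.161 by edgeR. Calls were made with upper-quartile scaling (-0.33), library size alone (-0.61) and the stricter filter of a mean of 50 counts (-0.28), and the adjusted p of Tgfbr1 over all fits ranged from 3.9e-08 to 0.599. The scalings moved all genes, since the median over all genes tested was -0.17 with upper-quartile scaling and -0.45 with library size alone, against -0.023 with TMM. The same scalings turned the share of higher genes among those called from 59.4% to 43.5% and 19.6%. Fibroblasts and endothelial cells carry both Tgfbr2 and Tgfbr3, and all 8 fibroblast and all 7 endothelial markers were higher in the same libraries, with median log2 fold changes of 1.59 and 1.82. Their part in the rise of the receptors was not tested.

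**Figure D2:**
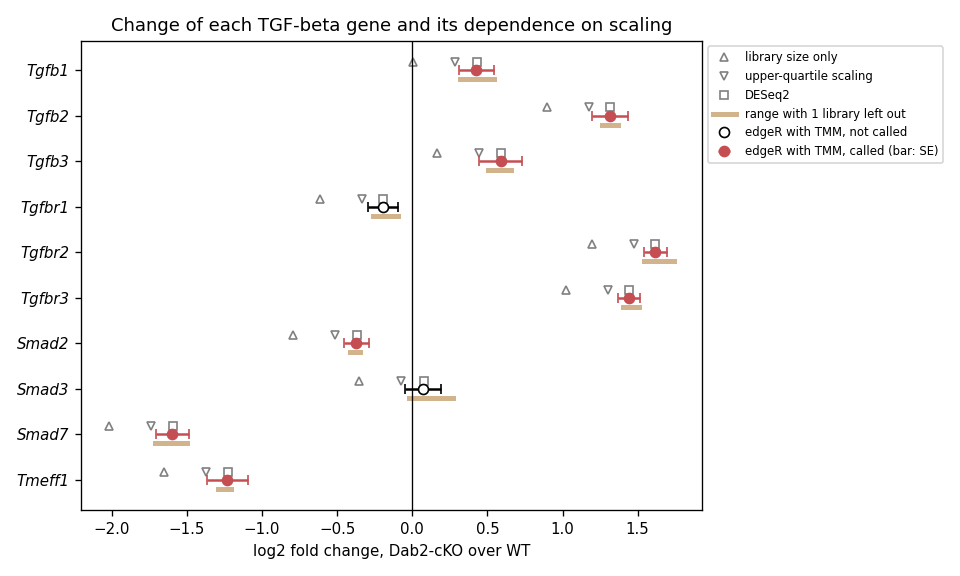
Log2 fold change (horizontal axis, above 0 where higher in Dab2-cKO) for each TGF-β gene by edgeR with TMM scaling (filled red where called, open black where not, bars are standard errors), with DESeq2, upper-quartile and library-size scaling as grey open marks and the range with 1 library left out as a tan bar. Tgfbr2, Tgfbr3 and Tgfb2 stayed at 0.89 or above and Smad7 and Tmeff1 at -1.21 or below under each setting shown, while Smad3 crossed 0.

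Of the Smad genes, Smad7 fell 3.02-fold, Smad2 fell slightly and Smad3 was not called. Smad7 (ENSMUSG00000025880, chromosome 18, 75500374 to 75529006), the inhibitory Smad, had 454, 585 and 620.4 normalized counts in WT and 159, 196 and 198 in Dab2-cKO. WT replicate 1 was the lowest of its group and still stood more than 2 times above each Dab2-cKO library. The log2 fold change was -1.60 (SE 0.11, adjusted p = 9.75e-21 by edgeR), with -1.71 to -1.50 when each library was left out in turn. The 250 bases before its start hold the palindrome GTCTAGAC, another Smad-binding element, beginning 127 bases before the start, as do 52 of the 21770 windows (0.239%).

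Smad2 (ENSMUSG00000024563, chromosome 18, 76374327 to 76445180), which carries the signal of the activated receptor to the nucleus, was at 585, 607 and 596 in WT and at 476, 439.6 and 466 in Dab2-cKO. The spread within each genotype was small, so that a fall of 0.37 on the log2 scale (SE 0.08, adjusted p = 0.00026 by edgeR) was called. It was called in each alternative fit, at -0.80 to -0.35.

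Smad3 (ENSMUSG00000032402, chromosome 9, 63554049 to 63665476), its partner with direct binding to DNA, had 208, 221 and 304 normalized counts in WT and 242, 272 and 262 in Dab2-cKO. WT replicate 3 stood above the Dab2-cKO libraries and the other two WT replicates below them. The log2 fold change of 0.07 (SE 0.12, adjusted p = 0.748 by edgeR) changed sign with upper-quartile scaling (-0.073), library size alone (-0.35, adjusted p = 0.0106), the filter of a mean of 50 counts (-0.016) and WT replicate 1 left out (-0.022). With TMM no difference in Smad3 was detectable at this depth, and it had no direction that held over the settings.

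Tmeff1 (ENSMUSG00000028347, chromosome 4, 48584869 to 48663136) encodes a transmembrane protein with follistatin-like domains. It was counted at 247, 244 and 234 in WT and at 98.2, 108 and 103 in Dab2-cKO, as normalized counts. The replicates differed by less than 15 counts within each genotype, and all Dab2-cKO libraries were below all WT libraries. Its log2 fold change was -1.23 (SE 0.14, adjusted p = 4.5e-12 by edgeR), from -1.65 to -1.21 over 15 alternatives. An even background, taken from 1525 chemosensory receptor genes that skin is not known to use, would give 22.2 of the WT and 21.9 of the Dab2-cKO counts. With that background taken off, the difference was -1.44 on the log2 scale. Of the 8 markers of the hair germ and anagen progenitors, the compartment in which Tmeff1 is known as a TGF-β target, 7 fell in the same libraries, from summed counts of 4466 to 5199.8 in WT to 1383 to 1477 in Dab2-cKO. All 6 proliferation markers fell as well. Their part in the fall of Tmeff1 and Smad7 was not tested.

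Per kb of exon, the order of the genes differed between the genotypes. Exon length is that of all annotated exons of a gene together, so the order within a genotype depends on the annotation. In the libraries labelled WT, Smad7 had the highest level, at 117 ± 18.4 normalized counts per kb (SD, n = 3), above Tgfbr3 at 86.9 ± 6.33, Tgfbr2 at 71.5 ± 9.83, Tgfbr1 at 59.9 ± 6.47 and Tmeff1 at 57.7 ± 1.61. The ranges of Tgfbr3 and Tgfbr2, of Tgfbr2 and Tgfbr1 and of Tgfbr1 and Tmeff1 overlapped, so these neighbours did not differ beyond their spread. Smad2 followed at 53.0 ± 1.02, then Tgfb1 at 42.8 ± 7.04 and Smad3 at 42.2 ± 8.99, which overlapped. Tgfb3 (22.7 ± 1.57) and Tgfb2 (21.5 ± 1.67) were lowest and overlapped each other, above an even background of 5.3 per kb.

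In the libraries labelled Dab2-cKO, Tgfbr3 (236 ± 7.60) and Tgfbr2 (219.7 ± 5.25) stood far above all others and did not overlap each other. Tgfb1 (57.9 ± 5.31), Tgfb2 (53.4 ± 0.847) and Tgfbr1 (52.5 ± 4.60) came next, each overlapping its neighbour in the order. Smad3 (44.6 ± 2.57), Smad2 (40.9 ± 1.67), Smad7 (38.8 ± 4.55) and Tgfb3 (34.3 ± 3.52) formed a chain of overlapping levels. Tmeff1 (24.6 ± 1.19) was the lowest, below Tgfb3 in every library. Smad7 thus went from rank 1 to rank 8 and Tgfb2 from rank 10 to rank 4.

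**Figure D3:**
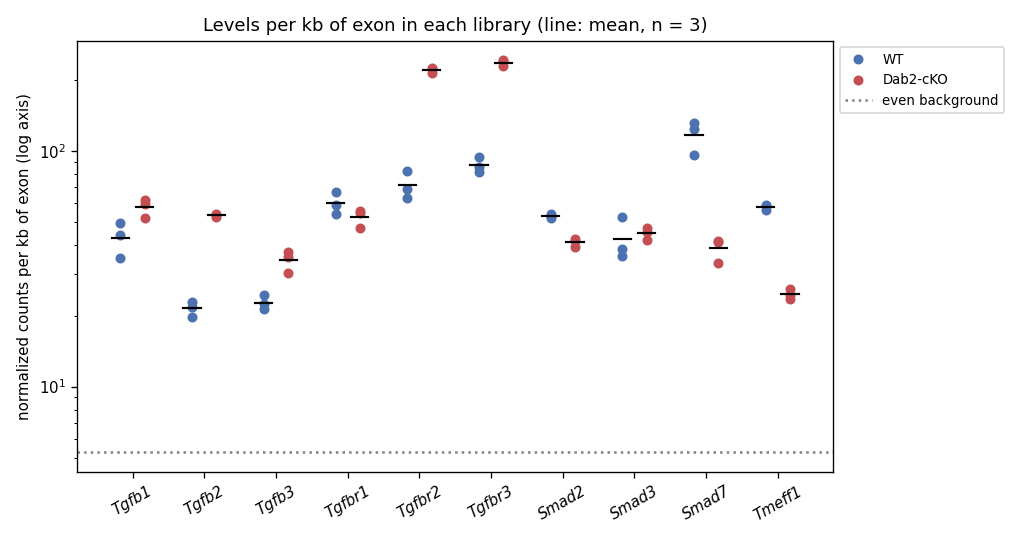
Normalized counts per kb of exon (log axis) of each TGF-β gene in the 3 libraries per genotype, with the mean as a line and the even background as a dotted line. Tgfbr2 and Tgfbr3 stood at 214 per kb or above in Dab2-cKO, and Smad7 led in WT at 95.7 to 131.

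Ratios between genes of the same library do not depend on the scaling between libraries, and 7 of them were compared. Their size depends on the exon lengths used, but their difference between the genotypes on the log2 scale does not. The ratio of Tgfbr1 to Tgfbr2 per kb of exon was 0.811 to 0.854 in WT and 0.211 to 0.255 in Dab2-cKO. This put the type II receptor 1.19 times above the type I receptor in WT and 4.2 times in Dab2-cKO, a difference of -1.82 in the mean log2 ratio. The co-receptor kept closer to Tgfbr2, with Tgfbr3 to Tgfbr2 at 1.14 to 1.36 in WT and 1.03 to 1.13 in Dab2-cKO.

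The ratios between the ligands were as follows. Tgfb2 was at 0.443 to 0.651 of Tgfb1 in WT and at 0.863 to 1.01 in Dab2-cKO, without overlap. Tgfb3 was at 0.931 to 1.24 of Tgfb2 in WT and at 0.579 to 0.686 in Dab2-cKO, again without overlap, while its ratio to Tgfb1 overlapped between the genotypes at 0.454 to 0.606 and 0.573 to 0.621.

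Smad7 was 2.49 to 3.23 times Smad3 in WT and 0.803 to 0.922 times Smad3 in Dab2-cKO, a difference of -1.68 in the mean log2 ratio. Smad3 to Smad2 overlapped narrowly, at 0.692 to 0.992 in WT and 0.988 to 1.2 in Dab2-cKO. The 5 ratios without overlap each had p = 0.1 in the exact 2-sided permutation test, the smallest that 3 against 3 allow, and 0.14 after Benjamini-Hochberg adjustment over the 7, so none passed the threshold. The 2 ratios that overlapped had p = 0.4 for Tgfb3 to Tgfb1 and p = 0.2 for Smad3 to Smad2 in the same exact test. With a library left out, the difference in the mean log2 ratio ranged from -1.87 to -1.73 for Tgfbr1 to Tgfbr2 and from -0.23 to -0.11 for Tgfbr3 to Tgfbr2.

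As markers of other cells moved with the genotype, the TGF-β genes were also set against marker genes of the same library, a comparison chosen after the data had been seen and given without a test. The share of all genes on each side of these references was not computed. The numbers of genes higher or lower below are therefore not a result particular to the TGF-β genes. Relative to the basal keratinocyte keratins Krt5 and Krt14, Tgfbr2 (0.90), Tgfbr3 (0.71) and Tgfb2 (0.58) were higher in all Dab2-cKO libraries, as differences of the mean log2 ratio. On this scale Tgfb1 was lower (-0.29 ± 0.13, pooled SD) and Tgfb3 overlapped (-0.14 ± 0.12). Tgfbr1 (-0.92), Smad2 (-1.11), Smad3 (-0.63), Smad7 (-2.31) and Tmeff1 (-1.96) were lower in all Dab2-cKO libraries. Krt5 and Krt14 were themselves higher in Dab2-cKO and were picked from the 12 bulge markers, so all 12 were also used as the reference.

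Relative to the 12 bulge markers, Tgfb1 (0.34 ± 0.15, pooled SD) and Tgfb3 (0.49 ± 0.15) were higher in all Dab2-cKO libraries, unlike against the keratins, along with Tgfbr2 (1.52), Tgfbr3 (1.34) and Tgfb2 (1.21). Smad3 overlapped (-0.0053 ± 0.23), and Tgfbr1 (-0.29), Smad2 (-0.48), Smad7 (-1.69) and Tmeff1 (-1.34) were lower. The side on which Tgfb1, Tgfb3 and Smad3 fell thus depended on the epithelial genes chosen.

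Relative to the 8 fibroblast markers, Tgfbr2 overlapped between the genotypes, with a difference of -0.089 ± 0.07 (pooled SD), and the other 9 genes were lower, from -0.27 for Tgfbr3 to -3.30 for Smad7. Relative to the 7 endothelial markers, Tgfbr2 (-0.10 ± 0.17) and Tgfbr3 (-0.28 ± 0.17) overlapped and the other 8 were lower. Smad7, Tmeff1, Smad2 and Tgfbr1 were lower against all 4 references. Krt5, Krt14 and all 8 fibroblast and 7 endothelial markers were themselves higher in Dab2-cKO, so a gene without change falls against them. The 12 bulge markers had a median log2 fold change of 0.57. Lower values against several references are therefore no added support, and Tgfbr1 was not called by edgeR.

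**Figure D4:**
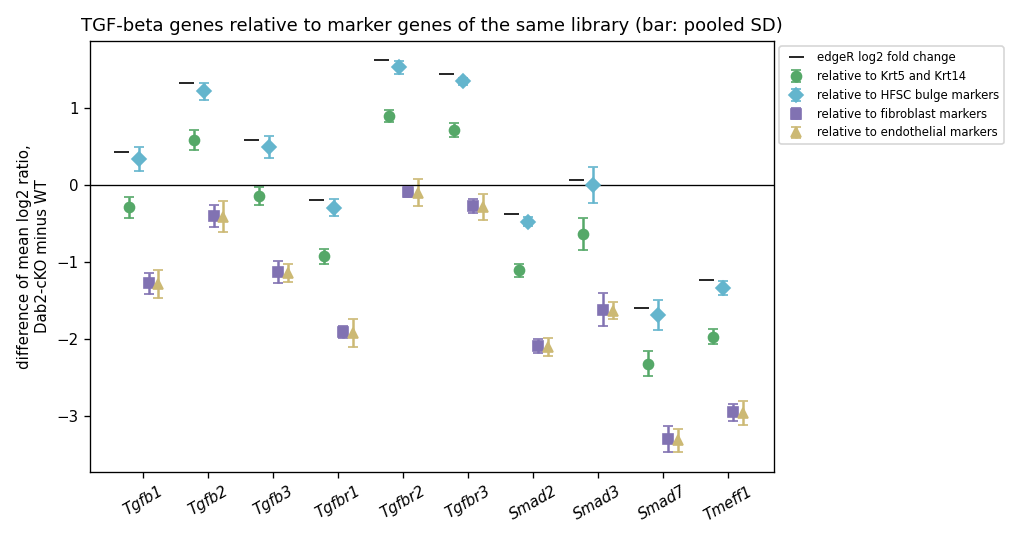
Difference of the mean log2 ratio, Dab2-cKO minus WT (vertical axis), of each TGF-β gene to Krt5 and Krt14 (green circles), to 12 bulge markers (light blue diamonds), to 8 fibroblast markers (purple squares) and to 7 endothelial markers (yellow triangles) of the same library, with pooled SD as bars and the edgeR log2 fold change as a black dash. Tgfbr2 lay at 0.90 against the keratins and at -0.089 against the fibroblast markers, while Smad7 was at -1.69 or below against each reference.

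The wider pathway was described by 5 further lists holding 67 genes, all of which were tested. Of these, 33 rose, 8 fell and 26 were not called, with a median log2 fold change of 0.24 against -0.023 over all genes tested. These counts and those of each list are to be read beside the shares over all genes tested, 16.8% higher and 11.4% lower. Among well-counted genes the shares were 39.7% higher and 24.2% lower. The list of latency and activation genes, whose products store latent TGF-β in the matrix or release it, had 9 of 13 genes higher and 2 lower, with a median of 0.59. Fbn1, the fibrillin that anchors latent complexes, went up from 1918 ± 156 to 7361 ± 128 in normalized counts (SD, n = 3 per genotype), a log2 fold change of 1.94 (edgeR's adjusted p = 2.74e-35). Ltbp1, a latent TGF-β binding protein, rose from 498 ± 58.3 to 1511 ± 20.5. Lrrc32, which holds latent TGF-β at the cell surface, rose from 64.8 ± 16.6 to 203 ± 8.11, and Ltbp4 from 1012 ± 33.1 to 1524 ± 65.8. The 2 that fell were Ltbp3 (log2 fold change -0.61) and Itgb6 (-0.79), the latter a subunit of an epithelial integrin that releases active TGF-β.

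Of the 10 co-receptors and receptor adaptors, 5 rose and 1 fell, with a median of 0.36. The gene that fell was Bambi, a decoy receptor without a kinase domain, from 548 ± 41.4 to 59.3 ± 4.39 normalized counts (SD, n = 3 each), a log2 fold change of -3.21 (edgeR's adjusted p = 1.1e-33). Eng, the endothelial co-receptor endoglin, rose from 206 ± 17.5 to 629 ± 20.1, next to the rise of all 7 endothelial markers. Tmeff2, a relative of Tmeff1, moved the opposite way, from 74.8 ± 15.7 to 229 ± 8.47, and its 6.74 normalized counts per kb in WT were near the even background. The receptor gene Acvrl1 (1.03) and the inhibitor gene Ldlrad4 (0.61) were higher as well, Ldlrad4 not with library size alone (0.19). Ldlrad4 had only 9.79 and 14.9 normalized counts per kb in WT and Dab2-cKO, and exons on the opposite strand cover 34.1% of its exon bases. Cd109, a co-receptor of keratinocytes that promotes receptor turnover, rose from 694 ± 31.2 to 1015 ± 50.4 and was not called with library size alone (0.12). Zfyve9, which brings Smad2 to the receptor, was not called (log2 fold change 0.17, edgeR's adjusted p = 0.0967), and its sign turned with library size alone (-0.26).

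In the activin arm, a sister pathway that also signals through Smad2 and Smad3, 4 of 12 genes rose, 2 fell and 6 were not called, with a median of 0.083. Of those not called, Inha, Nodal and Acvr2b were near or below the even background of 5.3 per kb. They had 3.69, 5.90 and 7.04 normalized counts per kb in WT and 3.53, 5.42 and 6.93 in Dab2-cKO, so the lack of a call says little about them. The ligand genes Mstn (log2 fold change 0.93), known from skeletal muscle, and Gdf11 (0.85) rose, as did the receptor gene Acvr1c (0.78) and Fst (0.68), the activin antagonist follistatin, while the receptor genes Acvr1b (-0.32) and Acvr2a (-0.28) fell. Gdf11, Acvr1c and Fst lost their calls with library size alone, and 30.5% of the exon bases of Acvr2a lie opposite exons of Orc4. Acvr2a lost its call with DESeq2 (-0.28, adjusted p = 0.0594) and without WT replicate 2 (-0.24) or Dab2-cKO replicate 1 (-0.24). All 5 skeletal muscle markers rose in the same libraries, and their part in the rise of Mstn was not tested.

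Among 14 Smad partners and regulators, 2 rose, 3 fell and 9 were not called, with a median of -0.15. Of those not called, Tgif2 and Foxh1 were near or below the even background of 5.3 per kb. They had 1.87 and 8.82 normalized counts per kb in WT and 1.66 and 6.70 in Dab2-cKO. Skil, a repressor of Smad complexes that TGF-β itself induces, fell from 692 ± 21.3 to 449 ± 17.4 normalized counts (SD, n = 3 each), a log2 fold change of -0.62 (edgeR's adjusted p = 2.16e-09). Tgif1, a repressor of the same class, fell from 229 ± 34.8 to 137 ± 10.8. Pmepa1, which also restrains Smad signaling, was lower at -0.26 (adjusted p = 0.0401 by edgeR) but lost its call with DESeq2 (adjusted p = 0.129) and without WT replicate 2 or 3 or Dab2-cKO replicate 1 or 3 (adjusted p = 0.0704 to 0.14). The phosphatase gene Ppm1a (0.38) was higher, with the sign turned by library size alone (-0.038). Ski, a repressor related to Skil, rose as well, from 1002 ± 52.9 to 1429.9 ± 63.3, but was not called with library size alone (0.089). The deubiquitinase gene Usp9x, with the highest normalized count of the list but a lower level per kb of exon than Ski, was not called (0.13), and its sign turned with upper-quartile scaling (-0.016) and with library size alone (-0.30).

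Of 18 genes reported as TGF-β targets in various cells, 13 rose, none fell and 5 were not called, with a median of 0.95. Of the 13 that rose, Timp1 and Snai1 had only 6.11 and 10.1 normalized counts per kb in WT. Both values are below the 95th percentile of the chemosensory genes (11.8). Smad7 (-1.60), Tmeff1 (-1.23) and Skil (-0.62), described above as induced by TGF-β or as its target, are not in this list and fell. The counts thus hold for the genes put on this list and not for TGF-β targets in general. Tgfbi, a matrix protein named for its induction by TGF-β, went up from 668 ± 38.3 to 3232 ± 73.9 in normalized counts (SD, n = 3 per genotype), a log2 fold change of 2.27 (edgeR's adjusted p = 1.42e-38). Lox, the collagen crosslinking enzyme, rose from 207 ± 15.3 to 671 ± 30.5, and the collagen genes Col1a1 and Col1a2 by log2 fold changes of 1.56 and 1.52. Col1a1 and Col1a2 are also in the fibroblast list. These 4 genes encode proteins of the extracellular matrix or an enzyme acting on it. The 5 that were not called were the cell cycle inhibitors Cdkn1a (-0.13) and Cdkn2b (-0.036), the transcription factors Junb (-0.022) and Snai2 (0.20) and the actin-binding protein gene Tagln (-0.071). Tagln had only 19.1 normalized counts in WT and 18.1 in Dab2-cKO (SE 0.41 on the log2 scale). Exons on the opposite strand cover 66.7% of its exon bases, so it was poorly measured. The part of the fibroblast markers in these rises was not tested. The counts of higher genes in these lists stand beside the 16.8% of all genes and 39.7% of well-counted genes that were higher.

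**Figure D5:**
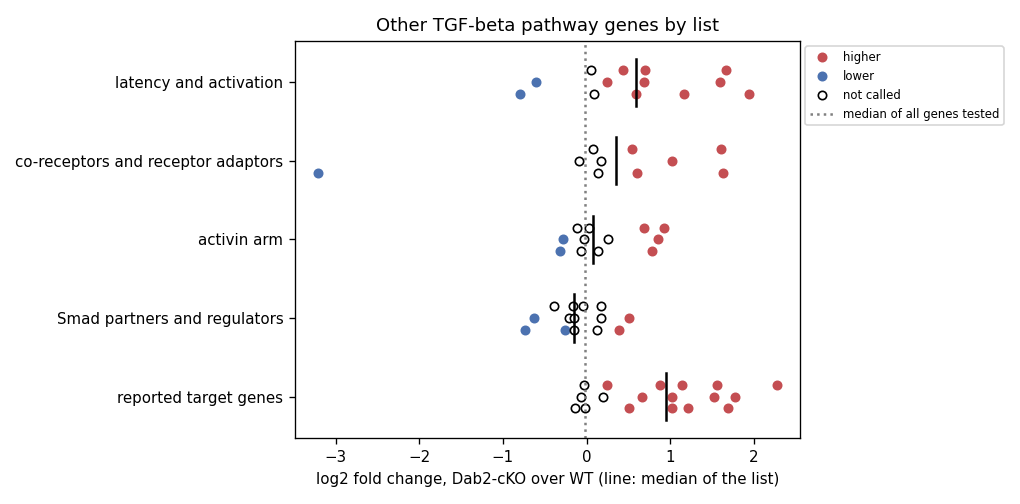
Log2 fold change (horizontal axis, above 0 where higher in Dab2-cKO) of each gene in 5 TGF-β pathway lists, filled red where higher, filled blue where lower and open where not called, with the median of each list as a black line and that of all genes tested (-0.023) as a dotted line. The reported target genes lie furthest to the right, with a median of 0.95, and Bambi stands alone at -3.21.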

How the data were processed

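Total RNA of sorted HFSCs at PD68 was sequenced by the authors with a SMARTer stranded kit, as 3 libraries per genotype. The authors trimmed the reads with fastp 0.23.4, aligned them to GRCm39 with HISAT2 2.2.1 and counted them per gene with featureCounts 2.0.6, and the deposited counts are not normalized. A second deposited table holds the authors' own DESeq2 comparison and was not used. The annotation release, strand setting and molecular identifiers are not given in the sources used here, and p-values measure the spread between these 3 libraries.

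Counts were filtered (filterByExpr), normalized by TMM and tested across all genes with the quasi-likelihood test of edgeR 4.0.16 in R 4.3.3, with Benjamini-Hochberg adjustment. Standard errors are the log2 fold change divided by the square root of the F statistic. The test was tested on simulated data with 200 changed genes, raised or lowered in similar numbers. As 9069 genes were called in the data, the simulation did not check the test under so wide a change of composition. Exon lengths and promoters came from GENCODE (GRCm39). Alternatives were DESeq2 1.42.0, 3 other scalings, 2 filters, a replicate block and each library left out, and, chosen after seeing the data, loess offsets for GC content and length, a background taken off and all bulge markers as a reference. The TGF-β genes, the lists and the alternatives were chosen with earlier results of these data known. Of each pathway list, the 2 most abundant genes were named and, where their mean normalized count reached 50, the 3 called genes of largest change. Ltbp3, Itgb6, Pmepa1, Ppm1a, Acvrl1, Ldlrad4, Fst, the bulge markers and the targets that were not called were named after their values were seen. The same holds for Inha, Nodal, Acvr2b, Tgif2, Foxh1, Timp1 and Snai1. Older symbols in the table were matched by gene ID.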

Additional observations from a re-analysis of the deposited data

How the results depend on the processing

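Library size alone gave 3 TGF-β genes higher and 5 lower, and every other alternative fit gave 5 higher, with 4 lower under upper-quartile scaling and a mean count of at least 50 and 3 lower otherwise. Of 140 tested values of single TGF-β genes under the alternatives, 131 kept their side of the threshold and their direction, and the 10 values with the even background taken off have no test. Smad3 reversed with upper-quartile scaling (-0.073), library size alone (-0.35) and a mean count of at least 50 (-0.016), and ranged from -0.022 to 0.27 with a library left out, the lowest being without WT replicate 1. Zfyve9 (-0.26) and Ppm1a (-0.038) reversed with library size alone, and Usp9x with upper-quartile scaling (-0.016) and library size alone (-0.30). Over all genes, library size alone gave 2707 higher and 11082 lower and upper-quartile scaling 5561 lower, against 5389 and 3680. In the pathway lists, library size alone gave 5 latency genes lower, 3 co-receptors higher and 5 lower, 1 activin gene higher, 0 Smad partners higher and 10 lower, and 2 targets lower. Upper-quartile scaling gave 2 co-receptors, 7 Smad partners and 1 target lower, a mean count of at least 50 gave 2, 6 and 1, and DESeq2 gave 1 activin gene lower. With a library left out, 1 to 2 activin genes were lower (1 without WT replicate 2 or Dab2-cKO replicate 1) and 2 to 5 Smad partners (5 without WT replicate 1). Library size alone and upper-quartile scaling moved the median of all genes to -0.45 and -0.17, and the cause of the other changes was not tested. The replicate block gave 5348 genes higher and 3616 lower and changed no call among the TGF-β genes. The deviations of same-numbered libraries from their genotype means had correlations of 0.072, -0.017 and 0.058. Libraries of different numbers had correlations of -0.098 to 0.051. Whether the numbers pair the libraries cannot be told from such weak values. With the even background taken off, Tgfb2 moved to 1.57, Tgfb3 to 0.74 and Tmeff1 to -1.44. The standard error was largest for Tgfb3 and Tmeff1, the TGF-β genes of lowest mean count.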
